A study of Mus musculus with 9 samples.

Results

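The constitutive proteasome genes were followed in non-epithelial cells of the mammary gland from ad libitum-fed and calorie-restricted (CR) mice. Members were taken by symbol. Every gene that starts with Psma, Psmb, Psmc, Psmd, Psme, Psmf or Psmg followed by a digit was kept, except the interferon-inducible Psmb8, Psmb9, Psmb10, Psme1 and Psme2. Of the 48 genes with such a symbol, 43 remained, out of 11063 genes in all. They fell into 14 core subunits, 17 regulatory particle subunits and 12 other genes. The rule itself uses symbols and no measured value, although it was proposed with results of these data known.

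All mice were female virgin FVB/N mice, aged 6 weeks at the start, with no transgene or deletion named for either diet. The 4 ad libitum libraries carry the numbers 2 to 5 (AL2 to AL5, the AL libraries) and came from mice with free access to food. The 5 CR libraries (CR1 to CR5) came from mice that received, for 8 weeks, 65% of the food eaten by the ad libitum mice on the day before, per the labels. The paper's methods give a somewhat higher share. Each library was made from RNA of 15000 cells of the #4 glands of 1 mouse. The cells were depleted of endothelial and some blood and fibroblast cells on magnetic beads and then sorted as negative for CD24 and negative or low for CD49f. For CD49f the paper's methods for the RNA say negative, and its results say negative or low. The sort is therefore a mixture of cell types defined by what it lacks. Fewer cells of a type and less RNA per cell cannot be told apart in such a mixture.

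The proteasome degrades proteins that carry chains of ubiquitin. Its core particle is a stack of rings, with outer rings of alpha subunits that gate the entrance and inner rings of beta subunits, among which Psmb5, Psmb6 and Psmb7 cut the protein chain. The regulatory particle caps the core, with a base whose ATPases unfold the substrate and a lid that takes off its ubiquitin. In immune cells and under interferon the 3 cutting subunits are replaced by Psmb8, Psmb9 and Psmb10, and PA28, made of Psme1 and Psme2, serves as another cap.

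Values are counts of unique molecules at the 3′ end of each gene, divided by the authors' size factor for the library (normalized counts). The whole counts behind them summed to 382877 to 817030 in the AL libraries and to 785301 to 1485963 in the CR libraries, so that the diets differed in depth. A count of 0 allows up to 3 counts, or 1.55 to 5.85 normalized counts depending on the library, for counting error only. Fold changes are differences of log2(normalized count + 1), CR minus ad libitum, tested with limma over the 6815 genes with at least 10 normalized counts in no fewer than 4 libraries, at a Benjamini-Hochberg adjusted p of at most 0.05. This scale understates the change of low genes. Markers of T cells differed strongly between the diets. Of 14 such markers tested, 14 were lower in CR, and together they took 0.231% to 0.452% of all normalized counts in the AL libraries against 0.0145% to 0.0312% in the CR libraries. The 12 fibroblast markers took 0.954% to 1.60% and 1.45% to 1.85%, respectively, with 4 higher and 1 lower in CR. Of the 8 macrophage markers present, 5 were too low to test. Of the 3 tested, 1 was lower in CR, at a log2 fold change of -3.27, while the others were at -0.07. Of the 2 markers of natural killer and B cells tested, 2 were lower. Of the 4 endothelial markers tested, 1 was higher and 1 lower. Epithelial markers were low, as the label of the sort has it, at 0.00453% to 0.0136% and 0.00293% to 0.00525%. The part of these differences in any proteasome result was not tested, unless a value is given beside it.

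Of the 43 members, 39 passed the filter on low values, and these included all 14 core and all 17 regulatory particle subunits. The other 4 (Psmc3ip, Psmd9, Psmd10 and Psmf1) were too low to test. CR changed 2 of the 39, or 5.13%, against 17.1% of all genes tested. The base subunit Psmd2 was higher, where 7.98% of all genes were higher, and Psme2b, a near copy of Psme2, was lower, where 9.14% of all genes were lower. At an unadjusted p under 0.05 there were 7 of the 39 (17.9%), against 30.5% of all genes tested, and the unadjusted counts given below for each group stand against that share. Fold changes were positive in 23 and negative in 16, with a median of 0.07 on the log2 scale, which was also the median over all genes tested. Irrespective of direction the median difference was 0.27, against 0.43 over all genes.

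The intervals show how much change these libraries could have hidden. The 95% interval lay within a 1.5-fold change in either direction for 8 of the 39 members (20.5%) and within a 2-fold change for 27 (69.2%). Over all genes tested these shares were 5.55% and 37.3%. The median SE was 0.25 for the members and 0.33 for all genes on the log2 scale, and the genes were not matched for level. For the other 12 members the interval reached past a 2-fold change, and a member that missed the threshold is not shown to be unchanged.

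**Figure D1:**
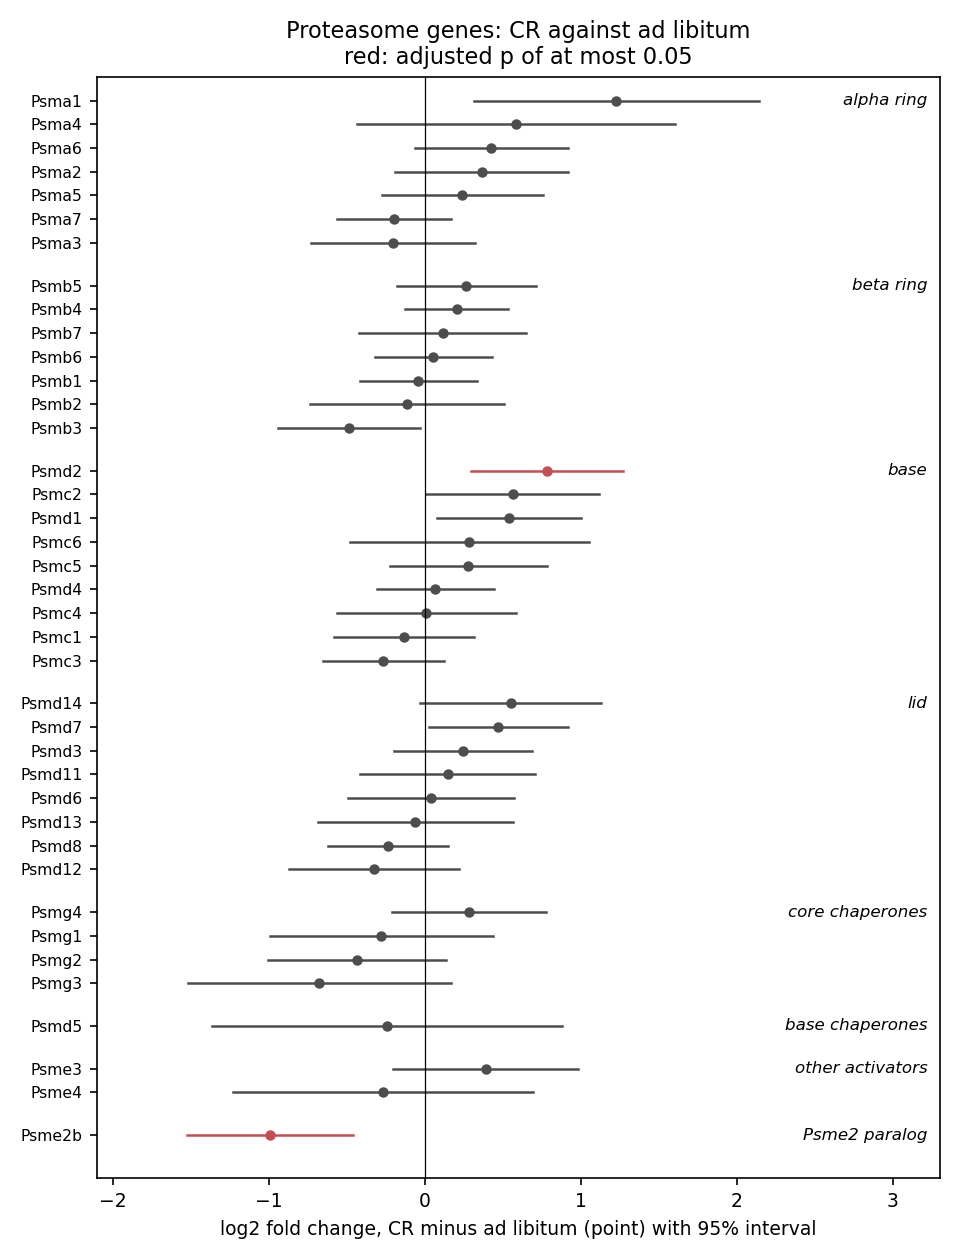
Log2 fold change (CR minus ad libitum, horizontal axis) of the 39 members tested, with the 95% interval as a bar, grouped by their place in the complex. Psmd2 and Psme2b, in red, passed the adjusted threshold, and most of the other intervals cross 0.

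**Figure D2:**
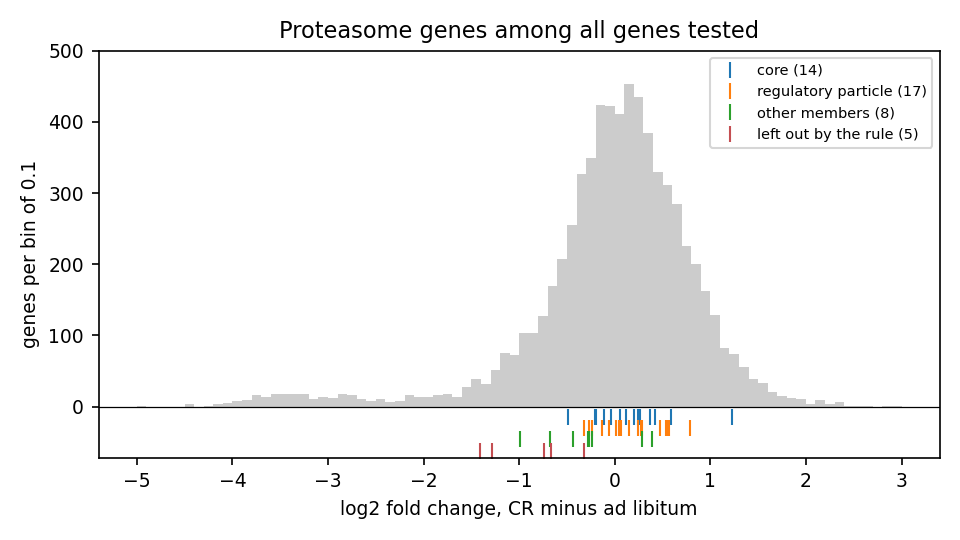
Histogram of the log2 fold changes of all 6815 genes tested (vertical axis, genes per bin of 0.1), with a tick below it for each proteasome gene. Most of the 14 core and 17 regulatory particle genes lie near the centre, with Psma1 (1.23) and Psmd2 (0.78) furthest to the right. The 5 genes that the rule leaves out all lie at negative values.

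Promoters of proteasome genes are shown first. Transcription of these genes is known to be driven through an antioxidant response element, bound by Nfe2l1 or Nfe2l2 with a small Maf partner. The pattern TGACNNNGC was searched on both strands from 250 bases before to 50 bases after each start site (RefSeq, GRCm38.p6). A promoter was matched by symbol for 25 of the 31 core and regulatory particle genes. The windows lie before the start site, with the pattern in capitals. The cutting subunits Psmb5 and Psmb6 carry it on the strand of the gene, and Psmc6 and Psmd12 on the other strand. No window was found for the cutting subunit Psmb7, for lack of the pattern or of a matched promoter.
Psmb5, chr14:54618010-54618066, minus strand: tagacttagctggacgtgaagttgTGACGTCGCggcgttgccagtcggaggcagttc
Psmb6, chr11:70525324-70525356, plus strand: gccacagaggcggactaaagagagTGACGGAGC
Psmc6, chr14:45329574-45329629, plus strand: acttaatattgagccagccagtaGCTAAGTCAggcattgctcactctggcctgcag
Psmd12, chr11:107479278-107479313, plus strand: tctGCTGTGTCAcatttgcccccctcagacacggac

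These were 4 of 25, or 16.0%, against 14% of all 27025 genes with a promoter and 17.1% of the 8390 among them that are in the table. The share among proteasome genes was thus close to that of other genes in windows of this length. None of the 5 genes left out by the rule carried it. The pattern CCAAT, to which the factor NF-Y binds, was found on either strand in 10 of 25 (40.0%), against 41.1% of all genes and 41.8% of those in the table. A pair of GAAA words separated by 2 bases, a spacing of interferon-responsive promoters, was found in 2 of 25 (8.00%), against 3.99% and 3.75%, and in 1 of the 5 genes left out. The patterns were searched separately, so that matches of one could overlap those of another. A match in a window is a description of its letters only.

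Among the cutting subunits of the core, Psmb5, which carries the chymotrypsin-like activity, had 59.24, 50.66, 46.39 and 56.89 normalized counts in AL2 to AL5 and 64.75, 59.80, 57.04, 73.30 and 66.05 in CR1 to CR5. The values overlapped, with CR3 below the highest AL library. The log2 fold change was 0.26 ± 0.21 (SE, n = 4 and 5; 95% interval -0.18 to 0.71, limma adjusted p = 0.431). Psmb6, which cuts after acidic residues, had 232.47, 214.34, 202.32 and 237.90 in the AL libraries and 283.16, 202.04, 186.40, 267.40 and 224.75 in the CR libraries. The CR libraries spread to both sides of the ad libitum range, and the log2 fold change was 0.05 ± 0.18 (SE, 95% interval -0.32 to 0.43, limma adjusted p = 0.869). Psmb7, with the trypsin-like activity, had 44.88, 31.18, 32.22 and 46.55 against 44.46, 42.83, 47.04, 29.42 and 45.47. A single CR library, CR4, was the lowest of the 9. The log2 fold change was 0.11 ± 0.25 (SE, 95% interval -0.42 to 0.65, limma adjusted p = 0.807). The fold changes of Psmb6 and Psmb7, and of Psmb4 and Psmd4 further on, became negative when the libraries were scaled to the fibroblast markers, and those of Psmb6 and Psmd4 also with scaling to total counts. Changes of sign were not limited to scaling. Psmb6 was at -0.02 without CR1, and Psmd4 at -0.06 without AL5 and at -0.03 with libraries thinned to equal depth. Exons of Nek6 on the other strand overlap the 3′ end of Psmb7, and none of the sources used here says whether counting used strand.

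The remaining beta subunits give the ring its structure. The one with the most counts was Psmb4, at 331.18 to 436.47 in the AL libraries and 382.70 to 485.25 in the CR libraries (log2 fold change 0.20, limma adjusted p = 0.418). Psmb3 had 92.45, 114.96, 96.65 and 84.47 in AL2 to AL5 and 84.08, 76.78, 48.80, 72.79 and 66.05 in CR1 to CR5. Each CR library lay below each AL library, by a margin of under 1 normalized count between AL5 and CR1. The log2 fold change of Psmb3 was -0.49 ± 0.22 (SE, limma adjusted p = 0.134), so that it did not pass. No member of the beta ring passed, of 7 tested by limma (1 at an unadjusted p under 0.05). Their median log2 fold change was 0.05, in a range from -0.49 to 0.26.

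Of the alpha subunits, Psma1 had the largest difference. It had 6.28, 5.85, 10.31 and 3.45 normalized counts in AL2 to AL5 and 11.60, 12.93, 17.05, 18.07 and 19.73 in CR1 to CR5. All CR libraries were above all AL libraries, yet these stood for only 2 to 8 whole counts in the AL libraries and 12 to 35 in the CR libraries. The log2 fold change was 1.23 ± 0.43 (SE, 95% interval 0.32 to 2.14, limma adjusted p = 0.0598), just outside the threshold. The exact two-sided permutation test over the 9 libraries gave an unadjusted p = 0.00794 for this gene, the smallest that 126 assignments allow. The lack of overlap makes this p small, so that it adds little to it. In the same test, unadjusted, p was 0.0159 for Psmb3, which was lower in CR. It was 0.0317 for each of Psmb5, Psmc2, Psmd1 and Psmd7, and 0.706 for Psmb6. Psma7, the alpha subunit with the most counts, had 264 to 375 against 251 to 338 (log2 fold change -0.20, limma adjusted p = 0.484). Psma6 and Psma2 had log2 fold changes of 0.42 and 0.36 (limma adjusted p = 0.234 and 0.381). No member of the alpha ring passed, of 7 tested by limma (1 at an unadjusted p under 0.05), and the median log2 fold change was 0.36.

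In the base of the regulatory particle, Psmd2 was the member that passed. It is a large scaffold subunit to which ubiquitin receptors and shuttle factors dock, and it lies at chr16:20651652-20663414 on the plus strand (GRCm38). Its normalized counts were 55.65, 42.87, 41.24 and 51.72 in AL2 to AL5 and 83.11, 56.57, 87.61, 82.60 and 111.52 in CR1 to CR5. The diets did not overlap, although CR2 was within 1 normalized count of AL2. The log2 fold change was 0.78 ± 0.23 (SE, n = 4 and 5), or 1.72-fold with a 95% interval from 1.22-fold to 2.41-fold, and limma's adjusted p was 0.0264. The exact two-sided permutation test gave an unadjusted p = 0.0159, the same as for Psmb3 in the opposite direction. The call was not stable. Without AL3, AL4, CR1, CR3 or CR5 the adjusted p was 0.0691, 0.0740, 0.0515, 0.0577 and 0.0752, respectively, with log2 fold changes of 0.67 to 0.78. It was also lost when libraries were scaled to total counts (log2 fold change 0.69, adjusted p = 0.0503) or to the fibroblast markers (0.56, adjusted p = 0.296).

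Psmd1, the other large scaffold of the base, had 91.5, 54.6, 92.8 and 69.0 normalized counts in the AL libraries and 90.8, 103, 129, 100 and 131 in the CR libraries. Only CR1 fell within the ad libitum range. Its log2 fold change was 0.54 ± 0.22 (SE, limma adjusted p = 0.103). The ATPase Psmc2 was at 0.56 ± 0.26 (SE, limma adjusted p = 0.158), with AL3 (35.1 normalized counts) far below the other AL libraries (74.5 to 98.3). Psmd4, a ubiquitin receptor and the base subunit with the most counts, had 124 to 184 against 156 to 181 (log2 fold change 0.07, limma adjusted p = 0.840). Of the 9 base subunits, 1 was higher and 0 were lower by limma (3 at an unadjusted p under 0.05), and the median was 0.28.

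In the lid, Psmd14, the enzyme that cuts ubiquitin chains off the substrate, had 42.2, 37.0, 21.9 and 25.9 normalized counts in AL2 to AL5 and 43.5, 34.8, 62.3, 52.1 and 39.5 in CR1 to CR5. The values overlapped, with CR2 and CR5 within the ad libitum range. Its log2 fold change was 0.55 ± 0.28 (SE, 95% interval -0.03 to 1.13, limma adjusted p = 0.188). Psmd7, the partner with which Psmd14 forms a dimer, was at 0.47 ± 0.21 (SE, limma adjusted p = 0.141), with 70.9 to 129 against 118 to 171 normalized counts. Averaged over the 9 libraries it had the most counts of the lid subunits, whereas in the AL libraries alone Psmd8 had more (a mean of 140.9 against 108.3). Psmd8, another lid subunit, was at -0.23 (limma adjusted p = 0.420). No lid subunit passed, of 8 tested by limma (1 at an unadjusted p under 0.05). Their median log2 fold change was 0.09, from -0.33 for Psmd12 to 0.55 for Psmd14.

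**Figure D3:**
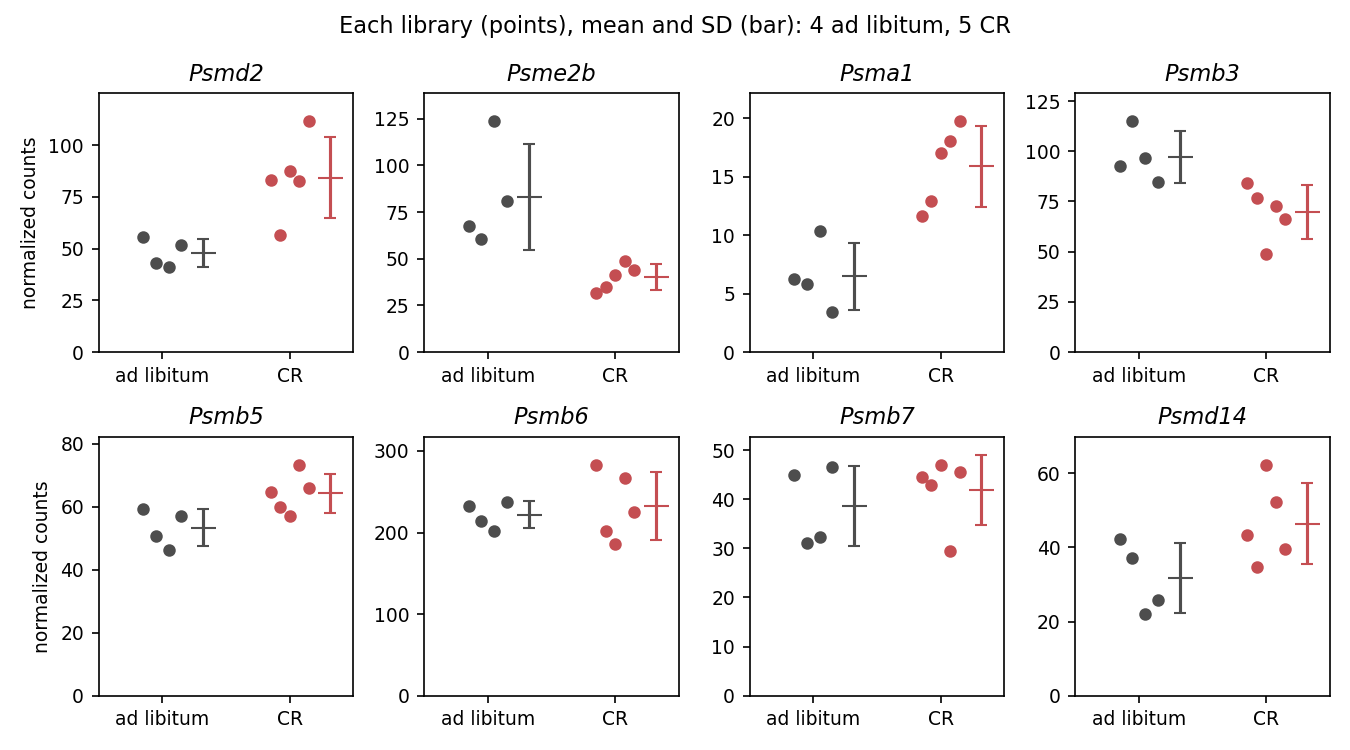
Normalized counts (vertical axes, from 0) of 8 members in each of the 4 ad libitum (grey) and 5 CR (red) libraries, with the mean and SD as a bar. Psmd2 and Psma1 do not overlap and are higher in CR, Psme2b and Psmb3 do not overlap and are lower, and the other 4 overlap.

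Counted by overlap, 2 of the 39 members were higher in every CR library than in every AL library (Psmd2 and Psma1), where 7.29% of all genes tested were. In the opposite direction there were also 2 (Psme2b and Psmb3), where 9.63% of all genes were. These shares of the members were near or below the background.

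The core was set against the regulatory particle within each library, which takes out the scaling of the library. The mean log2 level of the 14 core genes minus that of the 17 regulatory particle genes was -0.33, 0.24, -0.18 and -0.13 in AL2 to AL5. It was -0.15, 0.05, -0.24, -0.12 and -0.03 in CR1 to CR5. AL3, the library with the fewest counts, was the highest of the 9 and AL2 the lowest, so that the CR libraries lay within the ad libitum range. The mean was -0.10 ± 0.24 (SD, n = 4) in the ad libitum and -0.10 ± 0.11 (SD, n = 5) in the CR libraries. Without AL3, the CR mean was higher than the ad libitum mean by 0.11. The difference, CR minus ad libitum, was -0.08 without AL2. It was -0.12 with a filter of 30 normalized counts in no fewer than 4 libraries, which drops low genes such as Psma1.

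Both sets of genes had a positive median fold change, 0.16 for the core and 0.15 for the regulatory particle on the log2 scale, beside 0.07 for all genes tested. Of the core subunits 0 of 14 passed by limma (2 at an unadjusted p under 0.05), and of the regulatory particle 1 of 17 (4 at an unadjusted p under 0.05). The sign of both medians depended on the scaling. With the libraries scaled to the fibroblast markers, the medians were -0.06 and -0.07, beside -0.15 for all genes. As a share of all normalized counts, the core took 0.220% to 0.240% in the ad libitum and 0.208% to 0.240% in the CR libraries. The regulatory particle took 0.168% to 0.209% and 0.179% to 0.223%. The summed counts of the core were 1.05 to 1.42 times those of the regulatory particle in the AL libraries and 0.993 to 1.24 times in the CR libraries, and these ranges overlapped.

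**Figure D4:**
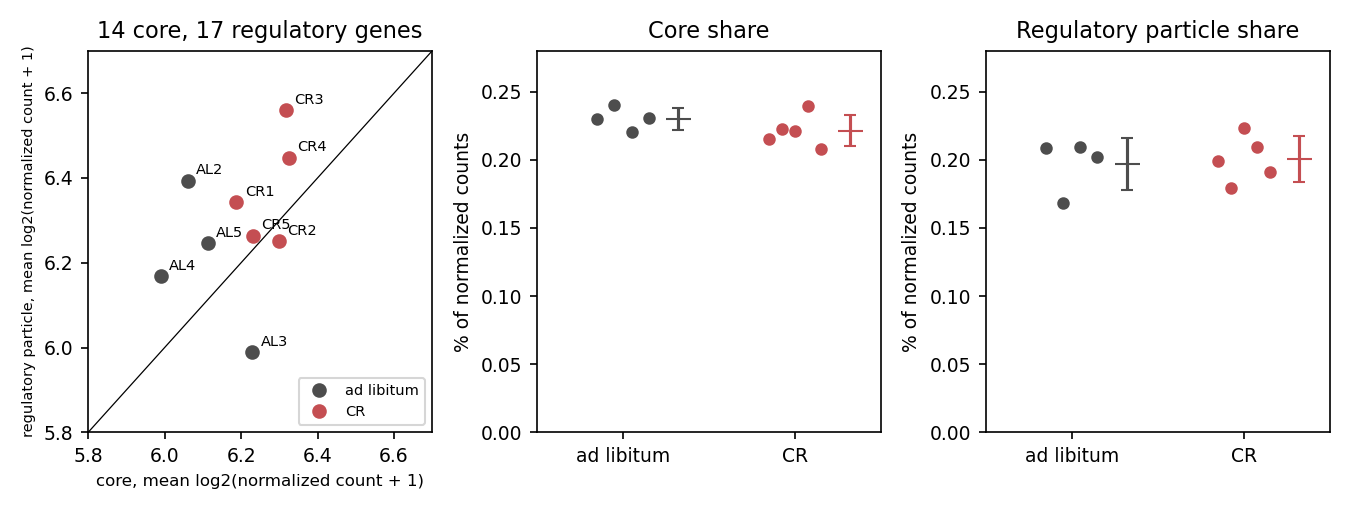
Left, mean log2 level of the 14 core genes (horizontal) against that of the 17 regulatory particle genes (vertical) in each library, with the line of equality; middle and right, their shares of all normalized counts with mean and SD. AL3 lies below the line and apart from the other AL libraries, and the shares of the diets overlap.

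The assembly chaperones and other caps were measured at lower counts. Psmg1 to Psmg4, which build the alpha ring, had no member that passed in limma (0 of 4, also 0 at an unadjusted p under 0.05), with log2 fold changes from -0.68 for Psmg3 to 0.28 for Psmg4. Psmg3 had 13.8 to 34.8 normalized counts against 6.86 to 28.2 (limma adjusted p = 0.277), and Psmg2 was at -0.44 (limma adjusted p = 0.301). Psmg4 had the most counts of the 4 (limma adjusted p = 0.448). Of the chaperones of the base, Psmd5 was at 3.43 to 19.1 normalized counts (log2 fold change -0.24, limma adjusted p = 0.804). Psmd9 was at 0 in all AL libraries and at most at 4.85 in a CR library, a level that the limit for a count of 0 in AL3 (5.85) would not resolve. Psmd10 was at 5.39 to 20.6 against 0 to 5.88 and was too low to test.

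Psme3, which forms a nuclear cap, had 65.5, 42.9, 52.8 and 36.2 normalized counts in AL2 to AL5 and 67.7, 33.1, 81.7, 75.4 and 73.8 in CR1 to CR5. All CR libraries but CR2 were above all AL libraries, and CR2 was below them all. Its log2 fold change was 0.39 ± 0.28 (SE, limma adjusted p = 0.380). Psme4, a cap with a known role in the testis, had 16.2, 48.7, 14.2 and 6.90 against 14.5, 15.4, 17.6, 8.78 and 14.6. AL3 alone was high, and the log2 fold change of -0.27 (limma adjusted p = 0.738) became 0.22 without it. Psmf1, an inhibitor of the core, was at 4.49 to 9.02 against 0 to 8.23. Psmc3ip shares the prefix but encodes a partner of recombinases in meiosis and no subunit, and it was at 1.72 to 15.5 against 3.43 to 8.89.

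Psme2b was lower in CR. Its annotated transcript, of 837 bases, spans its whole locus at chr11:48945354-48946190 on the minus strand (GRCm38) with no intron, and its symbol passes the rule although its parent Psme2 is left out. Its normalized counts were 67.32, 60.40, 123.71 and 81.03 in AL2 to AL5 and 31.89, 34.75, 41.16, 49.04 and 43.75 in CR1 to CR5. The diets did not overlap, and AL4 was far above the other AL libraries. The log2 fold change was -0.99 ± 0.25 (SE, n = 4 and 5), or 0.502-fold with a 95% interval from 0.347-fold to 0.726-fold, and limma's adjusted p was 0.0106. The exact two-sided permutation test gave an unadjusted p = 0.00794, the smallest it can give. Without AL4 the log2 fold change was -0.79 and the adjusted p was 0.0534.

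The count of Psme2b is uncertain as a measure of its own transcript. Over 794 aligned bases the annotated transcripts of Psme2 and Psme2b differed at 5, an identity of 99.4%, so that reads of one can be placed on the other. Another annotated gene on the same strand, 9930111J21Rik1, overlaps its 3′ end. Psme2 itself had 221.70, 198.75, 378.86 and 205.15 against 129.50, 172.95, 119.36, 182.23 and 167.28 normalized counts, with no overlap and with AL4 again the highest (log2 fold change -0.67 ± 0.22, SE, limma adjusted p = 0.0418). The ratio of Psme2b to Psme2 was 0.304 to 0.395 in the ad libitum and 0.201 to 0.345 in the CR libraries, and these ranges overlapped. The adjusted p of Psme2 exceeded the threshold without AL2 (0.0633), AL4 (0.164), CR1 (0.0946), CR3 (0.10) or CR5 (0.0552), with upper-quartile scaling (0.0702) and with libraries thinned to equal depth (0.0814).

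The interferon-inducible genes that the rule leaves out were set beside the constitutive ones. Psmb8 had 432.62, 592.35, 680.41 and 401.68 normalized counts in AL2 to AL5 and 157.53, 331.35, 198.74, 228.68 and 171.57 in CR1 to CR5 (log2 fold change -1.29 ± 0.22, SE, limma adjusted p = 0.000478). Psmb9 had 120.27, 132.50, 154.64 and 122.40 against 40.59, 88.09, 59.98, 33.55 and 38.60 (log2 fold change -1.41 ± 0.26, SE, limma adjusted p = 0.00100). In both genes AL4 was the highest of all libraries and CR2 the highest of the CR libraries, and the diets did not overlap. Psme1, at -0.74 (limma adjusted p = 0.00371), was also lower, and Psmb10 did not pass (-0.32, limma adjusted p = 0.478). Thus 4 of the 5 were lower in CR, where 9.14% of all genes tested were, and all 5 fold changes were negative. Among the 4, Psme2 passed under 12 of 20 alternatives, and Psmb8, Psmb9 and Psme1 under all 20.

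Each standard cutting subunit was then compared with its inducible counterpart in the same library. Psmb5 minus Psmb8, in log2(normalized count + 1), was -3.25 ± 0.51 (SD, n = 4) in the ad libitum and -1.70 ± 0.47 (SD, n = 5) in the CR libraries. The difference of 1.55 gave p = 0.0159 in an exact two-sided permutation test, or 0.0238 after adjustment over the 3 pairs. Psmb6 minus Psmb9 was 0.74 ± 0.27 (SD, n = 4) and 2.21 ± 0.77 (SD, n = 5), a difference of 1.47 (exact permutation p = 0.0159, adjusted 0.0238). In both pairs each CR library was higher than each AL library. Psmb7 minus Psmb10 differed by 0.43 and did not pass (exact permutation p = 0.373). That Psmb8 and Psmb9 were lower was known when these pairs were chosen, so that the tests are no independent support for it. Moreover, the standard subunit differed by 0.26 and 0.05 of these 1.55 and 1.47, and the inducible one made up the rest.

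Summed over the 6 genes, Psmb8, Psmb9 and Psmb10 took 65.0% to 79.6% of the counts in the AL libraries and 47.5% to 63.7% in the CR libraries. These are shares of 3′-end counts and not of protein. The 3 standard genes alone took 0.0397% to 0.0460% and 0.0375% to 0.0517% of all normalized counts, ranges that overlapped, whereas the 3 inducible genes took 0.0855% to 0.161% and 0.0389% to 0.0679%, which did not. The T-cell markers were also lower in CR. The immuno share and the T-cell share are given here by library. The immuno share was 67.8%, 73.1%, 79.6% and 65.0% in AL2 to AL5, where the T-cell markers took 0.321%, 0.316%, 0.452% and 0.231% of all normalized counts. It was 47.6%, 63.7%, 55.0%, 49.6% and 47.5% in CR1 to CR5, where they took 0.0186%, 0.0300%, 0.0205%, 0.0312% and 0.0145%. AL4 was the highest and AL5 the lowest AL library in both, and CR5 was the lowest CR library in both. The T-cell shares of AL2 and AL3 were nearly equal, as were those of CR2 and CR4, while their immuno shares differed. The part of T cells in the lower counts of Psmb8 and Psmb9 was not tested.

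**Figure D5:**
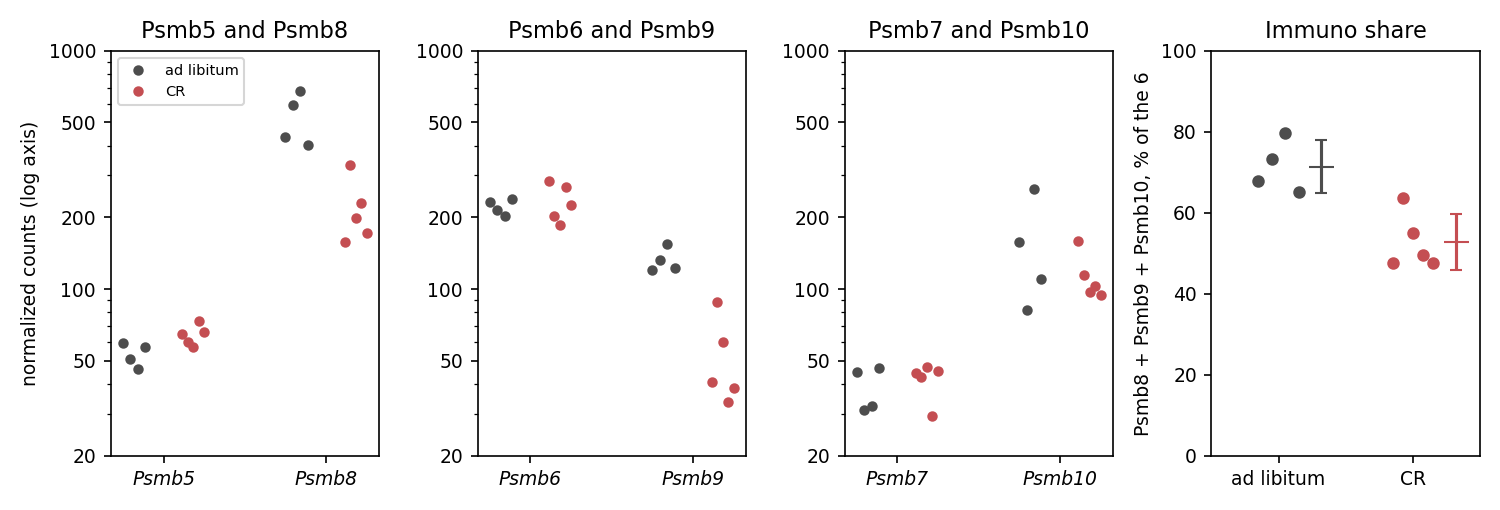
Normalized counts (log axis) of each standard cutting subunit and its inducible counterpart in the 4 ad libitum (grey) and 5 CR (red) libraries, and at right the share of Psmb8, Psmb9 and Psmb10 in the counts of all 6 genes with mean and SD. The standard subunits overlap between the diets, and the share runs from 65.0% to 79.6% in the ad libitum and from 47.5% to 63.7% in the CR libraries.

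Genes that act with the proteasome were read from lists. Of 14 tested subunits and partners outside the prefix, 0 were higher and 1 was lower by limma (4 at an unadjusted p under 0.05), and the median fold change was 0.12 on the log2 scale. The lower one was Uchl5, a deubiquitinase of the base, with 18.85, 33.12, 30.93 and 24.14 against 2.90, 3.23, 14.11, 23.23 and 6.86 normalized counts. CR4 lay within the ad libitum range, and the log2 fold change was -1.66 ± 0.51 (SE, limma adjusted p = 0.0315). Its adjusted p was over the threshold on the whole counts (0.0773 by edgeR and 0.0947 by DESeq2) and without AL3, AL4, AL5, CR1, CR2 or CR5 (0.0525 to 0.0933). Adrm1, the receptor to which it docks, was at 0.14 (limma adjusted p = 0.763), and Pomp, which guides core assembly, at -0.09 (limma adjusted p = 0.826). Of 9 tested genes of p97 and its cofactors, which extract ubiquitin-marked proteins, 0 passed in either direction by limma (2 at an unadjusted p under 0.05).

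Of 10 genes that control proteasome transcription, 2 were higher in CR and 0 were lower (3 at an unadjusted p under 0.05). Of all genes tested, 7.98% were higher and 9.14% lower. Both of the 2 encode small Maf proteins. Mafk, another small Maf on the list, did not pass (log2 fold change 0.52 ± 0.22, SE, limma adjusted p = 0.113), and its values overlapped between the diets. Maff had 230.67, 190.96, 122.42 and 205.15 normalized counts in AL2 to AL5 and 355.64, 425.10, 399.25, 390.26 and 385.17 in CR1 to CR5, with no overlap (log2 fold change 1.09 ± 0.19, SE, limma adjusted p = 0.000463). Mafg had 71.80, 46.76, 34.79 and 113.78 against 114.04, 88.90, 105.25, 124.41 and 148.40 (0.91 ± 0.29, SE, limma adjusted p = 0.0350). AL5 lay within the CR range, and the adjusted p of Mafg was over the threshold without AL3, AL4, CR1, CR3, CR4 or CR5 (0.0540 to 0.133). It was also over the threshold on the whole counts (0.0688 by edgeR and 0.0603 by DESeq2), with scaling to total counts (0.0528) and with scaling to the fibroblast markers (0.168, at a log2 fold change of 0.69). Their partners did not pass, with Nfe2l1 at 0.34 (limma adjusted p = 0.333) and Nfe2l2 at 0.36 (limma adjusted p = 0.197). Nfe2l2 nevertheless had no overlap, at 110.82 to 154.38 normalized counts in the AL and 161.63 to 222.85 in the CR libraries. The exact two-sided permutation test gave an unadjusted p = 0.00794 for it, which that lack of overlap makes small. Nfe2l2 was named after its values were seen, so that this p is no independent support. Of all genes tested, 7.29% were higher in CR without overlap.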

How the data were processed

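The authors sequenced 3′-end libraries (a bulk form of MARS-Seq) of 9 mice, trimmed reads with cutadapt, aligned them to mm10 with STAR, counted unique molecules with htseq-count within 1000 bases of RefSeq 3′ ends, corrected for saturation and normalized with DESeq2 (no versions are given in the sources used here). What the authors deposited are normalized counts (signal: molecule counts divided by a size factor) for 11063 genes. In each library 100% of values above 0 were whole multiples of 1 step (tolerance 0.01 counts), which gave the whole counts used by edgeR and DESeq2 as alternatives.

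As the values are normalized, log2(normalized count + 1) was tested with limma 3.58.1 (trend; R 4.3.3) over 6815 genes, checked on simulated data, with no covariate. edgeR 4.0.16 and DESeq2 1.42.0 were alternatives, as were other pseudocounts, filters and scalings, thinning to 382877 counts, each library left out and a replicate block. Single values were compared by exact two-sided permutation over 126 assignments. No pair of libraries was a duplicate.

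The members, gene lists and tests were chosen with earlier results of these data known. Named were members that passed, the cutting subunits, the 3 smallest p and the most counts in each subcomplex, members with a distinct role, the genes left out, and up to 4 that passed in each pathway list. Adrm1, Pomp, Nfe2l1, Nfe2l2, Mafk and Psmd12 were added after their values were seen. Positions come from GENCODE vM21 (GRCm38), which held 1 locus for each of the 43 members, and promoters from RefSeq (GRCm38.p6). Other comparisons of the series were not analysed here. A further pathway list is not reported here.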

Additional observations from a re-analysis of the deposited data

Results flagged for a closer look

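In 5 of the 86 sets of values (43 members in each diet) a single library stood far from the others of its diet, measured as its gap to the nearest library over the whole range of the diet. Chance alone gives about 1 in 20 such sets. Psma4 had 25.33 normalized counts in AL3 against 5.17 to 7.73 in the other ad libitum libraries. Psmb1 had 220.7 in AL5 against 260.3 to 266.9. Psmb7 had 29.42 in CR4 against 42.83 to 47.04 in the other CR libraries. Psmd13 had 107.3 in CR1 against 49.39 to 63.85. Psme3 had 33.14 in CR2 against 67.65 to 81.73. None of these genes passed the test between the diets in limma.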

How the results depend on the processing

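The count of members higher in CR was 1 and became 0 with scaling to total counts, with scaling to the fibroblast markers and with the replicate number as a block. It became 3 with upper-quartile scaling (Psma1, Psmd1 and Psmd2) and 2 when libraries were thinned to equal depth (Psmd2 and Psmd7). With 1 library left out it ranged from 0 to 1, and the count of members lower in CR likewise from 0 to 1. The median of the core subunits, 0.16, was 0.067 with scaling to total counts, 0.257 with upper-quartile scaling, -0.062 with scaling to the fibroblast markers and 0.054 with Psmb8, Psmb9 and Psmb10 put back. That of the regulatory particle, 0.15, was -0.074 with scaling to the fibroblast markers. The median over all genes was 0.07, and -0.02, 0.17 and -0.15 under these 3 scalings. Psmd2 passed under 12 of 20 alternatives and Psme2b under 19 of 20, and neither changed sign. Of 609 values for single genes under an alternative, 557 kept their direction and side of the threshold, 35 no longer passed and 3 newly passed. The sign changed in 14, from 6 genes, of which 0 had passed. Most of the 609 belong to genes that had not passed, which could not be lost. Of the genes outside the members that had passed, Mafg passed under 10 of 20 alternatives, Uchl5 under 11 of 19 and Psme2 under 12 of 20. Maff, Psmb8, Psmb9 and Psme1 passed under all 20.

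Neither the labels nor the paper say whether the replicate numbers pair the mice. The deviations of same-numbered libraries correlated at -0.06 to 0.04, and those of differently numbered libraries at -0.12 to 0.13. Such correlations cannot show how the mice were handled, so that a pairing remains unknown. With the replicate block, on the libraries numbered 2 to 5, Psmd2 had an adjusted p of 0.0734, against 0.0515 in the same 8 libraries without the block. Psme2 had 0.0794 with the block and 0.0946 without it. The 4 untested members and Psma1, whose ad libitum libraries held 2 to 8 counts, rest on few counts. They are not the only ones. In the ad libitum libraries Psma4 held 3 to 13, Psmd5 4 to 11 and Psme4 4 to 25 counts. Uchl5 held 3 to 45 counts in the CR libraries.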
